A study of Mus musculus with 36 samples.

Results

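The nuclear genes that encode subunits of the mitochondrial respiratory chain and of ATP synthase were followed across 36 bulk RNA-seq libraries of mouse embryonic fibroblasts (MEFs). Members were taken by name: every entry starting with Ndufa, Ndufb, Ndufc, Ndufs, Ndufv, Uqcr, Atp5, Cox4i, Cox5, Cox6, Cox7 or Cox8, together with Sdha, Sdhb, Sdhc and Sdhd, with a mean of at least 10 counts over the 36 libraries and no pseudogene mark in the name. Of 36930 entries, 92 names matched and 85 reached the minimum. The 7 names below it were Cox4i2, Cox6b2, Cox7a1, Cox7b2, Cox8b, Cox8c and Ndufa4l2, the highest of them Ndufa4l2 with a mean of 3.23 counts. The members nearest above it were Cox6a2 with a mean of 88.9 counts, Atp5s with 154 and Ndufaf3 with 198. All 85 members passed the filter on low counts and were among the 16065 genes tested.

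The members fell into 36 subunits of complex I (7 core and 29 accessory), 4 of complex II, 8 of complex III (3 core and 5 accessory), 13 of complex IV and 16 of complex V (5 of the catalytic head and 11 of the membrane part and stalk). The same prefixes took in 8 assembly factors of complex I, Ndufaf1 to Ndufaf7 and Atp5sl, which are needed to build the complex and are described separately. Ndufa4 and Cox7a2l were placed with complex IV, since the first is a subunit of cytochrome c oxidase in spite of its name and the second is a relative of subunit 7a that helps join complexes III and IV.

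Complex I takes electrons from NADH and complex II takes them from succinate. Both pass them through ubiquinone to complex III, from there through cytochrome c to complex IV and on to oxygen, and complexes I, III and IV pump protons that drive ATP synthesis by complex V. Complexes I, III, IV and V combine subunits encoded in the nucleus with subunits encoded in mitochondrial DNA, whereas all subunits of complex II are nuclear. Nuclear respiratory factor 1 (NRF1), ETS-family factors such as GABP, YY1 and the PGC-1 coactivators are known regulators of the nuclear genes.

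The labels give 2 genotypes, wild type (WT) and PERK -/-, and 6 treatments of each, with 3 replicates per group. DMSO was the vehicle, thapsigargin (Tg), BtdCPU and Halofuginone were given alone, and either of the last 2 compounds was also given together with thapsigargin. Thapsigargin blocks the calcium pump of the endoplasmic reticulum (ER) and causes ER stress, which the kinase PERK senses. BtdCPU activates the kinase HRI, and halofuginone inhibits prolyl-tRNA synthetase and activates the kinase GCN2. PERK, HRI and GCN2 all phosphorylate the translation factor eIF2 alpha, the step that starts the integrated stress response. The labels give no dose, time or batch, and they do not say whether replicates were separate cultures or how many lines or clones stand for a genotype. The p-values below therefore measure only the spread between these libraries, and an effect of PERK loss and a difference between cell lines cannot be told apart.

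Library totals ran from 32454257 to 37178107 counts. Eif2ak3, the gene of PERK, was still counted in PERK -/- cells, at a mean of 9.95 CPM (counts scaled to a common library size) in DMSO against 31.1 CPM in WT (log2 difference −1.65, SE 0.187, adjusted p = 8.69e-09). Of 7 genes checked as markers of the integrated stress response, 7 rose with thapsigargin in WT cells and 5 in PERK -/- cells. Of all genes, 24.9% and 15.2% rose in these comparisons. In PERK -/- cells Trib3 (1.56), Chac1 (1.38), Ddit3 (1.2), Atf4 (0.309) and Eif2ak3 itself (1.46) rose, and Psat1 (0.105) did not pass. Asns, another of the 7, had a log2 fold change of 1.92 in WT cells. Its change in PERK -/- cells was 0.10 (adjusted p = 0.551). In DMSO, Asns (0.948), Psat1 (0.876), Atf4 (0.691) and Ddit3 (0.609) were already higher in PERK -/- than in WT cells. Chac1 (0.443) and Trib3 (0.185) did not pass that test. Summed levels of 9 fibroblast markers were 13803 to 39290 CPM, against at most 23.8 CPM for epithelial, 5.33 CPM for endothelial, 3.89 CPM for leukocyte and 9.78 CPM for muscle markers, while a neural list reached 211 to 236 CPM in the WT thapsigargin libraries and 26.6 CPM at its lowest. WT BtdCPU replicate 2 stood apart from the other 2 libraries of its group, with 3.72% of its counts from mitochondrially encoded mRNAs against 1.81% and 1.79%. Marker levels that moved with a treatment are given in part beside its results. In bulk RNA, fewer cells of a kind and less RNA per cell cannot be told apart.

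Promoters of the members whose levels carry the results are shown first. The windows come from the RefSeq promoter table of GRCm38.p6, which held 69 of the 85 members, and each line gives the 150 bases before the annotated start, 5′ to 3′ on the strand of the gene. Capitals mark an exact match to the NRF1 core CGCATGCG or to the ETS core CCGGAAG, on either strand, and the ETS cores of Uqcrh and Sdhd read as its reverse complement. Uqcrh (chr4:116075071-116075220, minus strand), Cox7a2 (chr9:79759854-79760003, minus), Atp5k (chr5:108434400-108434549, minus) and Sdhd (chr9:50603850-50603999, minus) had the lowest thapsigargin log2 fold change of complexes III, IV, V and II in WT cells. Ndufaf4 (chr4:24897933-24898082, plus) moved in opposite directions in the 2 genotypes, Ndufa8 (chr2:36049339-36049488, minus) fell with halofuginone, and Atp5b (chr10:128083157-128083306, plus) was the most abundant and least variable member.
Uqcrh: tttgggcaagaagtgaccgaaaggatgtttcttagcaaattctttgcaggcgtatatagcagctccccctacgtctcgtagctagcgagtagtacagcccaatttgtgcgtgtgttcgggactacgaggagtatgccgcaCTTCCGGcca
Cox7a2: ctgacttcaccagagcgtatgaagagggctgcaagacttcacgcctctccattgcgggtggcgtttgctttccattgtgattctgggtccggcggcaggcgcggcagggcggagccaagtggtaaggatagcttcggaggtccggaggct
Atp5k: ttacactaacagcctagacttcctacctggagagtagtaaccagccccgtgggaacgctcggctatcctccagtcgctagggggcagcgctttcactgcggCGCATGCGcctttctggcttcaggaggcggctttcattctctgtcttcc
Sdhd: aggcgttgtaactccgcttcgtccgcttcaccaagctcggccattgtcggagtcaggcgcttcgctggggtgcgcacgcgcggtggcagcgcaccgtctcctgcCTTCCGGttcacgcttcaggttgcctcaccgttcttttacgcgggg
Ndufaf4: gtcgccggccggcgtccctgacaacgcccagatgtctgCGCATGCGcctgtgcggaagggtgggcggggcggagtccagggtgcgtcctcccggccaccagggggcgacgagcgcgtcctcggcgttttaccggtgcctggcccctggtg
Ndufa8: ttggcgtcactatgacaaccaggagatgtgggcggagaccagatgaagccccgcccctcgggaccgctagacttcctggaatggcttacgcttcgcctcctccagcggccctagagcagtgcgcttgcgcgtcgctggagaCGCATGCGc
Atp5b: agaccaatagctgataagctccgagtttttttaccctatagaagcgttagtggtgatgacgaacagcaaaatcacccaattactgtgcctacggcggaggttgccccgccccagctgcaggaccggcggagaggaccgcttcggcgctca

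The Uqcrh and Sdhd windows each held an ETS core, the Atp5k, Ndufaf4 and Ndufa8 windows each held an NRF1 core, and the Cox7a2 and Atp5b windows held neither. Over the full windows of 250 bases before to 50 after the start, both strands searched, the NRF1 core CGCATGCG occurred in 11 of 69 members (15.9%) and in 2.07% of all 27025 symbols with a promoter. The ETS core CCGGAAG occurred in 17 members (24.6%) and in 9.93% of all symbols, and the YY1 motif AAGATGGC in 9 members (13%) and in 3.19% of all symbols. The cyclic AMP response element TGACGTCA was found in 4 members (5.8%, against 2.03%), the ERR motif TCAAGGTCA in 2 (2.9%, against 0.466%) and the C/EBP-ATF motif TGATGNAA in 0 (against 4.51%). The letters AAG can be shared by an ETS core and a YY1 motif that adjoin. By complex, the YY1 motif was seen in 7 of 32 complex I subunits and in 2 of 13 complex V members, and in none of the 3, 5 and 10 members of complexes II, III and IV with a promoter. NRF1 cores were seen in 4 of 13 complex V members, 2 of 5 complex III members, 2 of 32 complex I subunits and 1 of 10 complex IV members. The 27025 symbols are more than the 16065 genes tested, so this background was not limited to expressed genes. It was not matched for base content either. These matches describe letters in a window and were not tied to binding in these cells.

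In untreated WT cells, on a scale of CPM per kilobase of transcript, Atp5b, the catalytic beta subunit of ATP synthase, was highest at 1830 CPM per kb (SD 28.7, n = 3), followed by the complex IV subunit Cox4i1 at 642, the ATP synthase alpha subunit Atp5a1 at 535, the c-ring gene Atp5g3 at 519 and Ndufa4 at 511. The lowest were the muscle isoform Cox6a2 at 0.111 CPM per kb, Atp5s at 2.67 and the assembly factors Atp5sl at 2.93 and Ndufaf4 at 4.23. The median subunit of complex IV stood at 263 CPM per kb and that of complex V at 176, compared with 112 for complex II, 101 for complex III, 93.7 for complex I and 10.6 for the assembly factors. Over the 12 group means Atp5b varied least, by 0.36 on the log2 scale, followed by Ndufab1, the mitochondrial acyl carrier protein, with 0.41. Cox6a2 varied most, by 5.40, followed by Atp5sl with 3.55, the complex III hinge protein Uqcrh with 2.96 and Ndufa4 with 2.53. Transcripts of 15 members overlap exons of another expressed gene in the annotation, among them Ndufs3, Ndufs1, Atp5o and Atp5j. These overlaps lie on the opposite strand, except that of Atp5o with Donson on the same strand. The use of strand in counting is not given, so counts of these members could include reads of a neighbour.

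**Figure D1:**
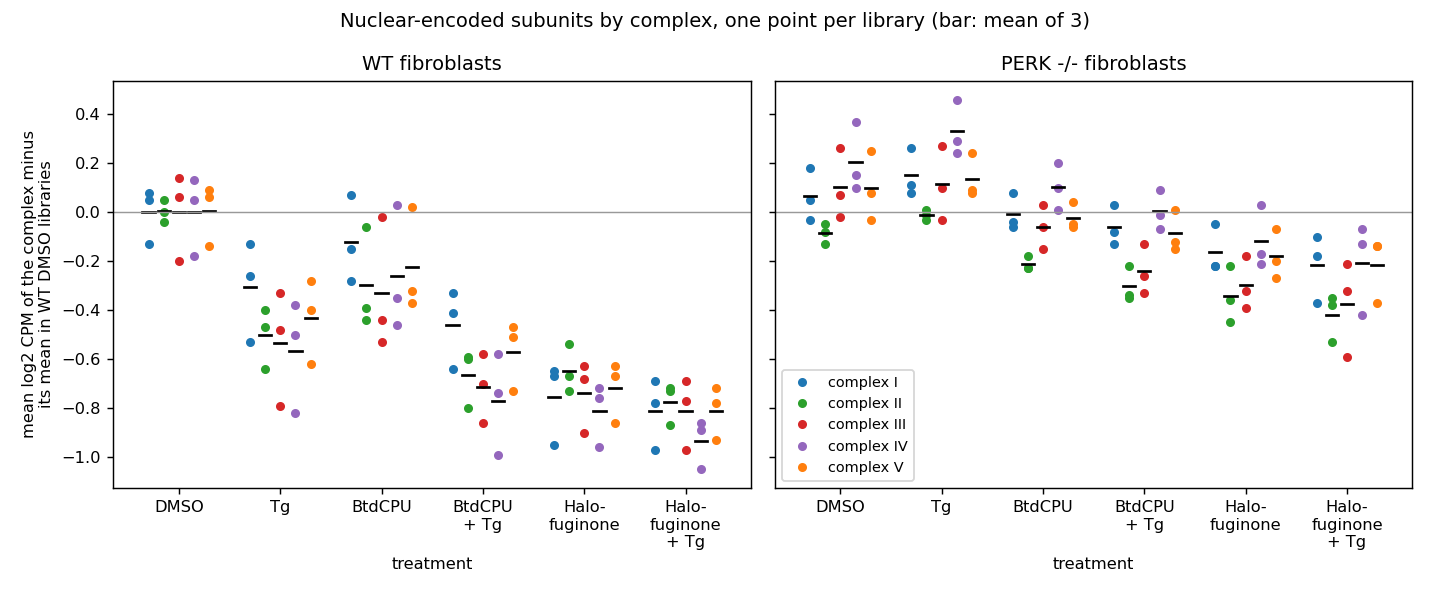
Score of each complex (mean over its members of log2 CPM minus the mean in WT DMSO, Cox6a2 left out) in each library, with treatments on the x axis, WT cells in the left panel and PERK -/- cells in the right one. Points are libraries, colours are complexes and bars are means of 3 libraries; WT halofuginone means lie between −0.65 and −0.81, and PERK -/- halofuginone means between −0.12 and −0.34.

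Each library was also given a score per complex, the mean over its members of log2 CPM minus the WT DMSO mean (Cox6a2 left out). Replicate 3 had the lowest score over all subunits in 12 of 12 groups. The labels do not tie replicate numbers to a batch. Counts from fits with a replicate block are given in the closing section, and what this difference stands for was not tested. Thapsigargin lowered WT scores to −0.31 ± 0.21 for complex I, −0.50 ± 0.12 for II, −0.53 ± 0.23 for III, −0.57 ± 0.23 for IV and −0.43 ± 0.17 for V (SD, n = 3). The PERK -/- scores with thapsigargin were 0.15, −0.01, 0.11, 0.33 and 0.13, beside 0.07, −0.09, 0.10, 0.21 and 0.10 in PERK -/- DMSO. WT halofuginone scores were −0.76 ± 0.17, −0.65 ± 0.10, −0.74 ± 0.14, −0.81 ± 0.13 and −0.72 ± 0.12, and the 5 complexes thus lay within a narrow band in that group. PERK -/- halofuginone scores were −0.16, −0.34, −0.30, −0.12 and −0.18. WT BtdCPU replicate 2 had scores of 0.07, −0.06, −0.02, 0.03 and 0.02, where replicates 1 and 3 had −0.15 and −0.28 for complex I and −0.35 and −0.46 for complex IV.

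Without treatment, PERK -/- cells differed from WT cells in 34 members, 23 of them higher and 11 lower. Among all genes tested, 24.6% were higher and 24.9% lower, so the members' shares were close to the background upward and below it downward. The split changed with the scaling: with library size alone it was 24 higher and 6 lower, and with an offset for transcript length 23 higher and 21 lower. Complex medians stayed between −0.10 for complex II and 0.12 for complex III on the log2 scale, and no complex moved as a block. The assembly factors had a median of 0.48, with 5 of 8 higher and 1 lower.

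Single subunits of the same complex lay on opposite sides. Cox7a2l read 10.4, 12.9 and 9.5 CPM in the 3 WT DMSO libraries and 31.9, 33.3 and 30.8 CPM in PERK -/- DMSO. The 2 genotypes did not overlap (log2 difference 1.55, SE 0.156, adjusted p = 7.15e-10). Its relative Cox7a2 went the other way, with 187, 203 and 131 CPM in WT and 85.5, 107 and 88.5 CPM in PERK -/- cells (−0.89, SE 0.201, adjusted p = 0.000424). In the core of complex I, Ndufv1, which carries the NADH site, was higher in PERK -/- cells at 280, 302 and 304 CPM against 165, 155 and 164 CPM (0.87, SE 0.0772, adjusted p = 4.37e-11). The core subunits Ndufs1 (−0.48) and Ndufs3 (−0.72) were lower. In complex III, the core protein Uqcrc1 fell from 564, 521 and 517 CPM in WT to 292, 316 and 318 CPM (−0.79, SE 0.0887, adjusted p = 6.79e-09), whereas the small subunit Uqcr10 was higher (0.65, adjusted p = 0.00129). In complex V, Atp5g1, 1 of 3 genes for the same c-ring protein, was higher (0.90, adjusted p = 6.58e-05), and the other c-ring genes Atp5g2 (0.01) and Atp5g3 (0.04) did not pass the test.

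Thapsigargin in WT cells lowered 40 members and raised 3, the assembly factors Ndufaf4 and Ndufaf5 and the muscle isoform Cox6a2. Among all genes 22.7% fell and 24.9% rose, and the median log2 fold change was −0.30 for the members and 0.02 for all genes. By complex, 14 of 36 complex I subunits fell (median −0.29), 2 of 4 in complex II (−0.41), 5 of 8 in III (−0.33), 6 of 13 in IV (−0.24) and 11 of 16 in V (−0.40). Counts and medians of the 13 complex IV members in the text include Cox6a2, which passed the filters on low counts only through the groups in which it is high. The scores, which are means and leave it out, put complex IV at −0.57 ± 0.23 in these libraries. Of the 7 core subunits of complex I edgeR called 0 (2 at an unadjusted p under 0.05, and 2 by DESeq2), and the 14 it called were among the 29 accessory subunits. The core values ran from −0.30 to 0.02. Core transcripts ran from 870 to 2625 bases, beside a median of 872 bases over the 36 complex I subunits. Members other than Cox6a2 with at most 1000 bases had a median of −0.39 in this comparison, and longer ones −0.17. The difference between core and accessory subunits and the part of length in it were not tested. Marker levels moved in the same libraries: 9 of 9 fibroblast markers were detected and summed to 15964 to 20535 CPM with thapsigargin against 24257 to 32380 CPM in WT DMSO, and 3 of 3 neural markers summed to 211 to 236 CPM against 62.7 to 72.2 CPM. The fibroblast sum in PERK -/- cells was 19241 to 24090 CPM with thapsigargin against 15674 to 18488 CPM, and the neural sum 110 to 132 CPM against 73.8 to 82.6 CPM. Their part in the result was not tested.

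Uqcrh fell most. It read 141, 156 and 107 CPM in the WT DMSO libraries and 31.1, 30.1 and 25 CPM with thapsigargin. Every treated library lay below every DMSO library (log2 fold change −2.23, SE 0.238, adjusted p = 3.98e-09). The same gene read 171, 208 and 160 CPM in DMSO and 184, 211 and 167 CPM with thapsigargin in PERK -/- cells, and these groups overlapped (0.06, SE 0.225, adjusted p = 0.902). The difference between the genotypes in the thapsigargin response was 2.29 (SE 0.325, adjusted p = 1.26e-06).

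Cox7a2 and Cox7b of complex IV and Atp5k of complex V also fell in WT cells. Cox7a2 went from 187, 203 and 131 CPM to 70, 66.7 and 42.6 CPM in WT cells (−1.54, SE 0.204, adjusted p = 2.35e-07) and from 85.5, 107 and 88.5 CPM to 94.5, 109 and 85.1 CPM in PERK -/- cells. The WT groups did not overlap, the PERK -/- groups did, and the genotype difference was 1.58 (SE 0.285, adjusted p = 4.41e-05). Cox7b fell from 255, 279 and 180 CPM to 107, 98 and 68.7 CPM in WT cells (−1.38, SE 0.235, adjusted p = 1.33e-05). Atp5k, the e subunit in the ATP synthase dimer interface, fell from 25.7, 22.5 and 23.1 CPM to 10.3, 9.72 and 9.91 CPM (−1.25, SE 0.181, adjusted p = 1.07e-06), with a genotype difference of 1.33. In both genes no treated WT library reached the lowest DMSO library.

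In complex I the accessory subunit Ndufb3 fell most, from 42.3, 46.8 and 36.7 CPM to 18.8, 17.9 and 13.5 CPM (−1.32, SE 0.167, adjusted p = 9.24e-08). In complex II the 2 membrane anchors fell, Sdhd from 139, 157 and 136 CPM to 76.5, 81.3 and 56.8 CPM (−1.01, SE 0.19, adjusted p = 5.13e-05) and Sdhc by 0.66 on the log2 scale. The catalytic subunits of the same complex, Sdha (−0.16) and Sdhb (−0.17), did not pass. Other central subunits also did not pass, among them Ndufs1 (0.02), Uqcrc2 (0.06), Cox4i1 (−0.16), Atp5a1 (−0.14) and Atp5b (−0.12, adjusted p = 0.203). Uqcrc1 (−0.35) and the ATP synthase gamma subunit Atp5c1 (−0.40) did fall.

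Thapsigargin raised 1 member and lowered 2 in PERK -/- cells, where 15.2% of all genes rose and 12.7% fell. Ndufv3, an accessory subunit of complex I, was the one that rose, from 32.1, 32 and 33.5 CPM to 50.6, 51.8 and 57.6 CPM (0.71, SE 0.126, adjusted p = 4.77e-05). In WT cells it fell from 36.8, 36.1 and 37.6 CPM to 27.5, 25.9 and 21.8 CPM (−0.56, SE 0.127, adjusted p = 0.000536), and in neither genotype did treated and DMSO libraries overlap. The members that fell in PERK -/- cells were Ndufaf4 (−1.25) and Ndufab1 (−0.27, adjusted p = 0.0328). The test of the genotype difference itself called 34 members, 32 with a higher log2 fold change in PERK -/- cells and 2 with a lower one, Ndufaf4 and Cox6a2; among all genes the shares were 19.5% and 18.6%. The median genotype difference was 0.41 for complex I, 0.56 for II, 0.38 for III, 0.41 for IV and 0.43 for V, against 0.03 for all genes. It was 0.22 for complex IV with the length offset and 0.26 for complex I without WT thapsigargin replicate 3.

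**Figure D2:**
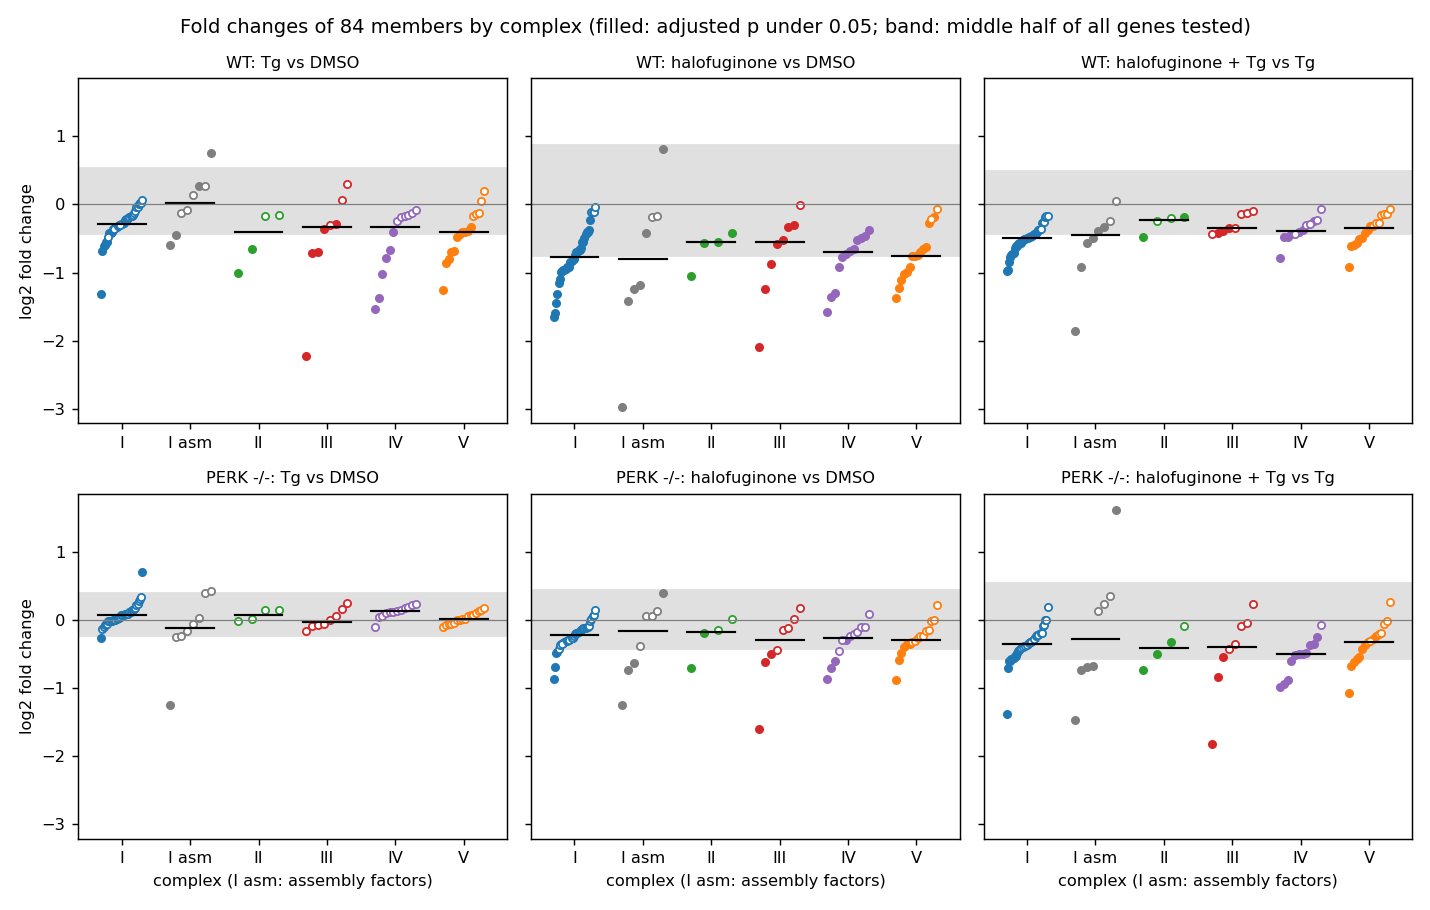
Log2 fold change of 84 members (Cox6a2 left out) by complex, WT cells in the upper and PERK -/- cells in the lower panels, for thapsigargin, halofuginone, and halofuginone over thapsigargin. Filled points passed the adjusted test, bars are medians without Cox6a2 and the grey band is the middle 50% of all genes; medians of complexes I to V lie below 0 in the WT panels and near 0 with thapsigargin in PERK -/- cells.

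Halofuginone alone lowered 74 of the 85 members in WT cells and raised 2, Ndufaf4 and Cox6a2, against 33.4% of all genes lower and 34.7% higher. The median log2 fold change was −0.71 for the members and 0.00 for all genes. In complex I 32 of 36 subunits fell (median −0.77), in II 4 of 4 (−0.56), in III 7 of 8 (−0.55), in IV 12 of 13 (−0.68) and in V 14 of 16 (−0.75). Core subunits were included here, with 6 of 7 in complex I, 3 of 3 in complex III and 5 of 5 of the catalytic head of complex V lower. Scaling by library size alone moved the all-gene median to −0.11, and 77 members fell; with an offset for transcript length 65 fell and 3 rose. Of the epithelial markers 5 of 5 were detected, and they summed to 17.1 to 23.8 CPM with halofuginone against 0.171 to 0.422 CPM in WT DMSO and to 3.27 to 4.8 CPM against 1.39 to 1.96 CPM in PERK -/- cells. The WT rise lay mainly in Krt8 (mean 0.125 CPM in DMSO and 11.2 CPM with halofuginone) and Krt18 (0 and 7.5 CPM), while Epcam was near 0 in both (0.0768 and 0.0407 CPM). Fibroblast markers summed to 28259 to 39290 CPM with halofuginone in WT cells. The neural sum there was 26.6 to 42.6 CPM against 62.7 to 72.2 CPM in DMSO. The endothelial sum was 3.22 to 5.33 CPM against 0.248 to 0.899 CPM. In PERK -/- cells the neural sum was 87 to 103 CPM with halofuginone against 73.8 to 82.6 CPM. The endothelial sum of that genotype was 0.687 to 1.32 CPM against 0.437 to 0.995 CPM. The part of these markers in the result was not tested.

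Ndufa8, an accessory subunit of complex I, read 118, 102 and 115 CPM in WT DMSO and 38.9, 38.4 and 29.6 CPM with halofuginone. The highest treated library stood at 38.9 CPM and the lowest DMSO library at 102 CPM (log2 fold change −1.65, SE 0.107, adjusted p = 1.89e-14). It went from 111, 111 and 115 CPM to 79.9, 92.9 and 69.4 CPM in PERK -/- cells (−0.48, SE 0.104, adjusted p = 0.000378), a fall in both genotypes that differed by 1.17 (SE 0.148, adjusted p = 4.74e-07). Ndufv3 fell by 1.60 on the log2 scale in WT and by 0.86 in PERK -/- cells. Uqcrh fell from 141, 156 and 107 CPM to 35.4, 33.2 and 26.7 CPM in WT (−2.09, SE 0.237, adjusted p = 3.83e-09) and from 171, 208 and 160 CPM to 54.6, 63.6 and 59.7 CPM in PERK -/- cells (−1.60, SE 0.232, adjusted p = 1.34e-06). For Uqcrh the treated and untreated libraries were apart in both genotypes, and the genotype difference of 0.48 did not pass the test. Even Atp5b was lower in WT cells, by a small amount: 3556, 3517 and 3448 CPM in DMSO and 3311, 3142 and 2830 CPM with halofuginone (−0.18, adjusted p = 0.0406). That call was lost with the length offset (−0.09).

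Halofuginone lowered 27 members and raised 2 in PERK -/- cells, where 21% of all genes fell and 21.2% rose. The median over the members was −0.24, and complex medians ran from −0.17 in complex II to −0.29 in complexes III and V. Without PERK -/- halofuginone replicate 3 the number called was 18 in place of 29. The genotype difference in the halofuginone response was called for 40 members, all with a higher log2 fold change in PERK -/- cells and 0 lower, at backgrounds of 17.5% higher and 17.5% lower; the 1 member called lower at an unadjusted p under 0.05 did not pass edgeR's adjusted test, and DESeq2 called 43 higher and 0 lower. By complex it was 21 of 36 in I, 2 of 4 in II, 1 of 8 in III, 5 of 13 in IV and 6 of 16 in V, with medians between 0.37 (III) and 0.53 (I). With the length offset these medians were 0.20 and 0.32. Besides Ndufa8, the accessory subunit Ndufb9 differed by 0.97 (adjusted p = 5.62e-05), Atp5g1 by 0.91, Ndufa4 by 0.84 and Sdhb by 0.58. The count was 26 with the length offset, 22 without PERK -/- halofuginone replicate 2 and 25 without PERK -/- DMSO replicate 3.

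BtdCPU alone lowered 11 members in WT cells and raised 1, against 9.31% of all genes lower and 12.9% higher. Those lowered were Ndufb3 in complex I, Sdhc and Sdhd in II, Uqcrh in III, Cox6b1, Cox7a2 and Cox7b in IV, and Atp5g3, Atp5j, Atp5j2 and Atp5k in V, and Cox6a2 was the one raised. Uqcrh read 39.8, 106 and 41.7 CPM with BtdCPU against 141, 156 and 107 CPM in DMSO (−1.11, SE 0.229, adjusted p = 0.000654), and the high value was that of replicate 2. Sdhd showed the same library apart, with 65.5, 131 and 64.9 CPM against 139, 157 and 136 CPM (−0.72, SE 0.189, adjusted p = 0.0054). Ndufb3 (−0.72), Cox7b (−0.71) and Cox7a2 (−0.70) also fell, the last 2 with overlapping groups. The count rested on single libraries: it was 26 without BtdCPU replicate 2, 4 without replicate 1 or without replicate 3, and 6 without DMSO replicate 1 or without DMSO replicate 2. The split of 1 higher and 11 lower became 5 and 10 with the length offset, where 12.4% of all genes were higher and 11.5% lower, and 13 and 14 with the length offset and a replicate block, where 17.1% and 16.5% were. With both, the members' shares were thus near the background.

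With BtdCPU in PERK -/- cells edgeR called 0 members, at backgrounds of 2.55% higher and 1.04% lower. At an unadjusted p under 0.05 there were 5, 1 higher and 4 lower, and DESeq2 called 1 higher. Uqcrh read 126, 117 and 102 CPM with BtdCPU against 171, 208 and 160 CPM in PERK -/- DMSO; these groups did not overlap, and its change of −0.65 had an adjusted p of 0.122. The genotype difference in the BtdCPU response was called for 0 members by edgeR and by DESeq2, at backgrounds of 0.0373% higher and 0.162% lower, with 2 members at an unadjusted p under 0.05. Without WT BtdCPU replicate 2 it was 4. That the genotypes responded alike to BtdCPU is not shown by this count.

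**Figure D3:**
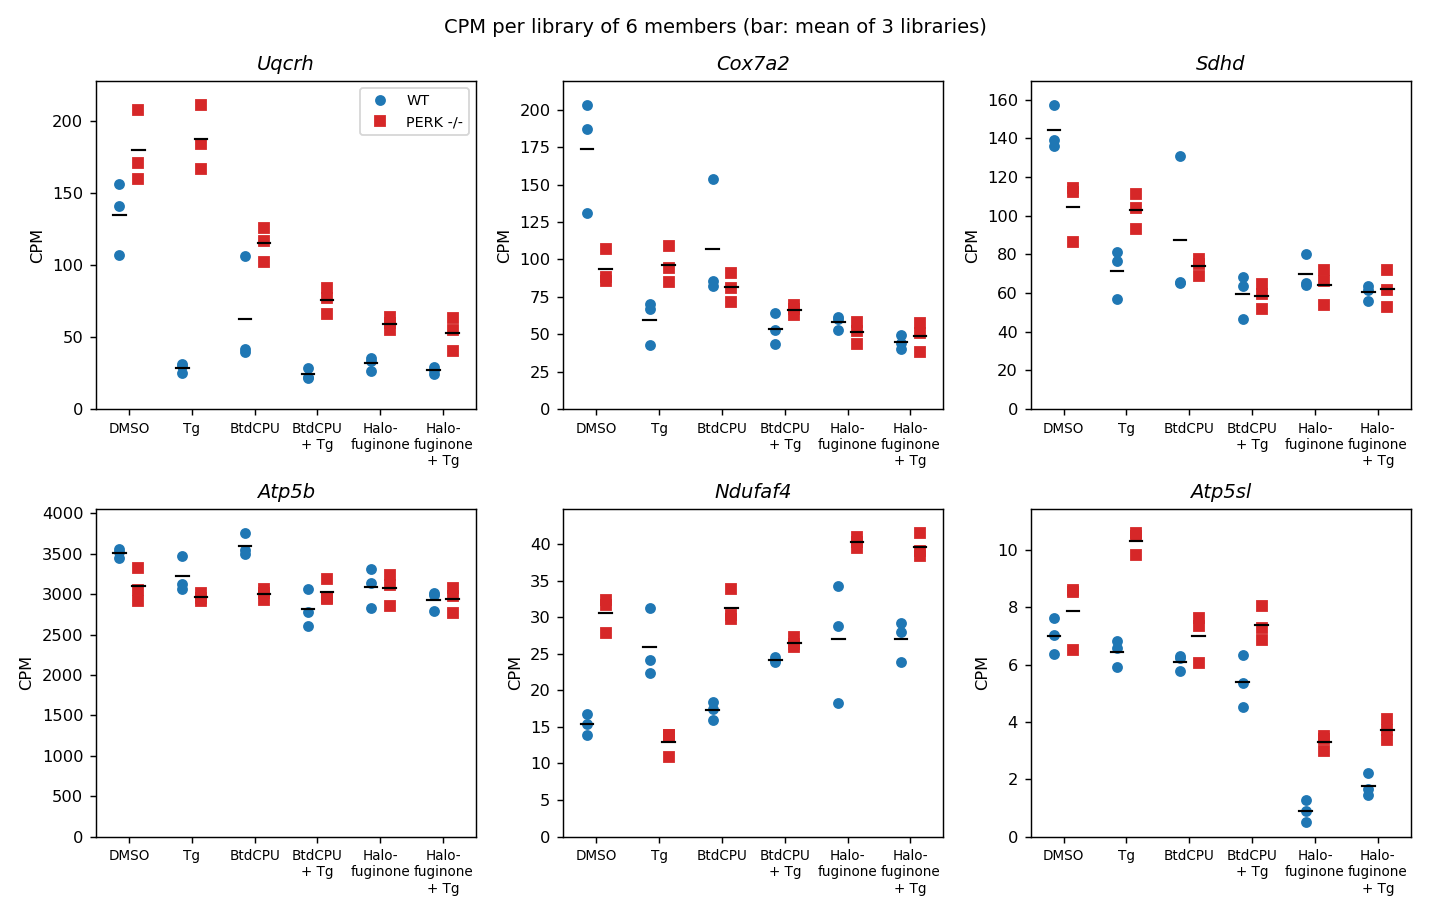
CPM (y axis, from 0) of Uqcrh, Cox7a2, Sdhd, Atp5b, Ndufaf4 and Atp5sl in each library by treatment, circles for WT, squares for PERK -/- cells and bars for means of 3 libraries. Uqcrh is at 25 to 31.1 CPM in WT thapsigargin libraries and at 167 to 211 CPM in those of PERK -/- cells, while Ndufaf4 is higher in WT and lower in PERK -/- cells with thapsigargin than with DMSO.

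Each compound was also given together with thapsigargin. In WT cells BtdCPU with thapsigargin against thapsigargin alone gave 0 calls by edgeR, at backgrounds of 1.29% higher and 1.02% lower. At an unadjusted p under 0.05 there were 16, 1 higher and 15 lower, and DESeq2 called 7, 1 higher and 6 lower. The edgeR count of 0 became 1 without WT BtdCPU with thapsigargin replicate 1, without WT thapsigargin replicate 2 or without WT thapsigargin replicate 3. Here the replicate numbers were taken to pair the libraries, from correlations in the data and not from the labels. With the replicate block 15 members were called, Ndufaf1 higher (0.42) and 14 lower, among them Atp5g1 (−0.50), Uqcrq (−0.37) and Ndufa4 (−0.36). Among all genes the blocked fit called 6.88% higher and 6.06% lower. Complex medians ran from −0.14 in II to −0.23 in IV.

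Halofuginone with thapsigargin against thapsigargin alone lowered 58 members in WT cells and raised 0, against 22.5% and 22.8% of all genes; no member was higher at an unadjusted p under 0.05 or by DESeq2. In complex I 31 of 36 subunits fell (median −0.50), compared with 2 of 4 in II (−0.22), 3 of 8 in III (−0.35), 7 of 13 in IV (−0.38) and 9 of 16 in V (−0.35). Ndufb9 (−0.98, SE 0.122, adjusted p = 9.52e-08), Ndufa8 (−0.97, SE 0.105, adjusted p = 9.01e-09) and Atp5g1 (−0.92) fell, whereas Uqcrh, already low with thapsigargin, did not pass (−0.09, adjusted p = 0.776). With the length offset 35 members were called and the medians of complexes I, III, IV and V were −0.29, −0.12, −0.14 and −0.13. Without WT thapsigargin replicate 1 the count was 36. From correlations in the data and not from the labels, the replicate numbers were taken to pair the libraries here too. The counts and p-values of this paragraph come from fits without the replicate block, which leave that pairing out. Over all 16065 genes the block moved the number of calls from 7276 to 8597.

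BtdCPU over thapsigargin lowered 25 members and raised 3 in PERK -/- cells, at backgrounds of 18.3% lower and 17.3% higher. Uqcrh fell from 184, 211 and 167 CPM to 77, 84.3 and 66.3 CPM (−1.30, SE 0.23, adjusted p = 3.84e-05), Sdhd from 104, 111 and 93.2 CPM to 59.6, 64.6 and 51.7 CPM (−0.81, SE 0.19, adjusted p = 0.00106) and Atp5k from 36.9, 39.9 and 35.9 CPM to 20.8, 23.5 and 21.2 CPM (−0.78, SE 0.175, adjusted p = 0.0007). In all 3 genes every library with BtdCPU lay below every library with thapsigargin alone. The members that rose were Ndufaf4 (1.04), Ndufaf6 (0.48) and Cox6a2. The count was 16 without BtdCPU with thapsigargin replicate 1, 12 without its replicate 3, 17 without thapsigargin replicate 1 and 15 without thapsigargin replicate 2.

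Halofuginone over thapsigargin in PERK -/- cells lowered 48 members and raised 2, Ndufaf4 and Cox6a2, at backgrounds of 27.5% lower and 25.2% higher. The falls covered 18 of 36 subunits in complex I (median −0.35), 3 of 4 in II (−0.41), 3 of 8 in III (−0.39), 11 of 13 in IV (−0.50) and 9 of 16 in V (−0.32). Uqcrh fell from 184, 211 and 167 CPM to 63.5, 55 and 40 CPM (−1.82, SE 0.233, adjusted p = 7.64e-08), and Ndufv3 from 50.6, 51.8 and 57.6 CPM to 19.8, 23.7 and 17.8 CPM (−1.38, SE 0.128, adjusted p = 1.28e-10). The comparison of each compound over thapsigargin in PERK -/- cells used the same 3 thapsigargin libraries, so the 2 sets of values are given side by side without a test between them.

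The genotype difference for BtdCPU over thapsigargin was called for 5 members, 3 higher and 2 lower, at backgrounds of 10.7% and 10.1%. They were Cox6a2, Ndufaf4 (1.14) and Ndufab1 (0.41) upward and Uqcrh (−1.05, SE 0.325, adjusted p = 0.0195) and Ndufv3 (−0.51) downward. The split was 2 and 4 with library size alone and 3 and 6 with the length offset, and the count was 3 without WT BtdCPU with thapsigargin replicate 2, PERK -/- BtdCPU with thapsigargin replicate 3, PERK -/- thapsigargin replicate 2 or PERK -/- thapsigargin replicate 3. For halofuginone over thapsigargin 15 members were called, 11 higher and 4 lower, at backgrounds of 15.9% and 16.9%. Uqcrh (−1.73, SE 0.327, adjusted p = 0.000104), Ndufv3 (−0.54) and Cox6b1 (−0.56) had a lower log2 fold change in PERK -/- cells than in WT cells, and Atp5g1 (0.74), Uqcrq (0.61), Ndufa8 (0.53) and Sdhb (0.39) a higher one. With the length offset the split was 9 and 13, and without PERK -/- thapsigargin replicate 3 the count was 8.

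**Figure D4:**
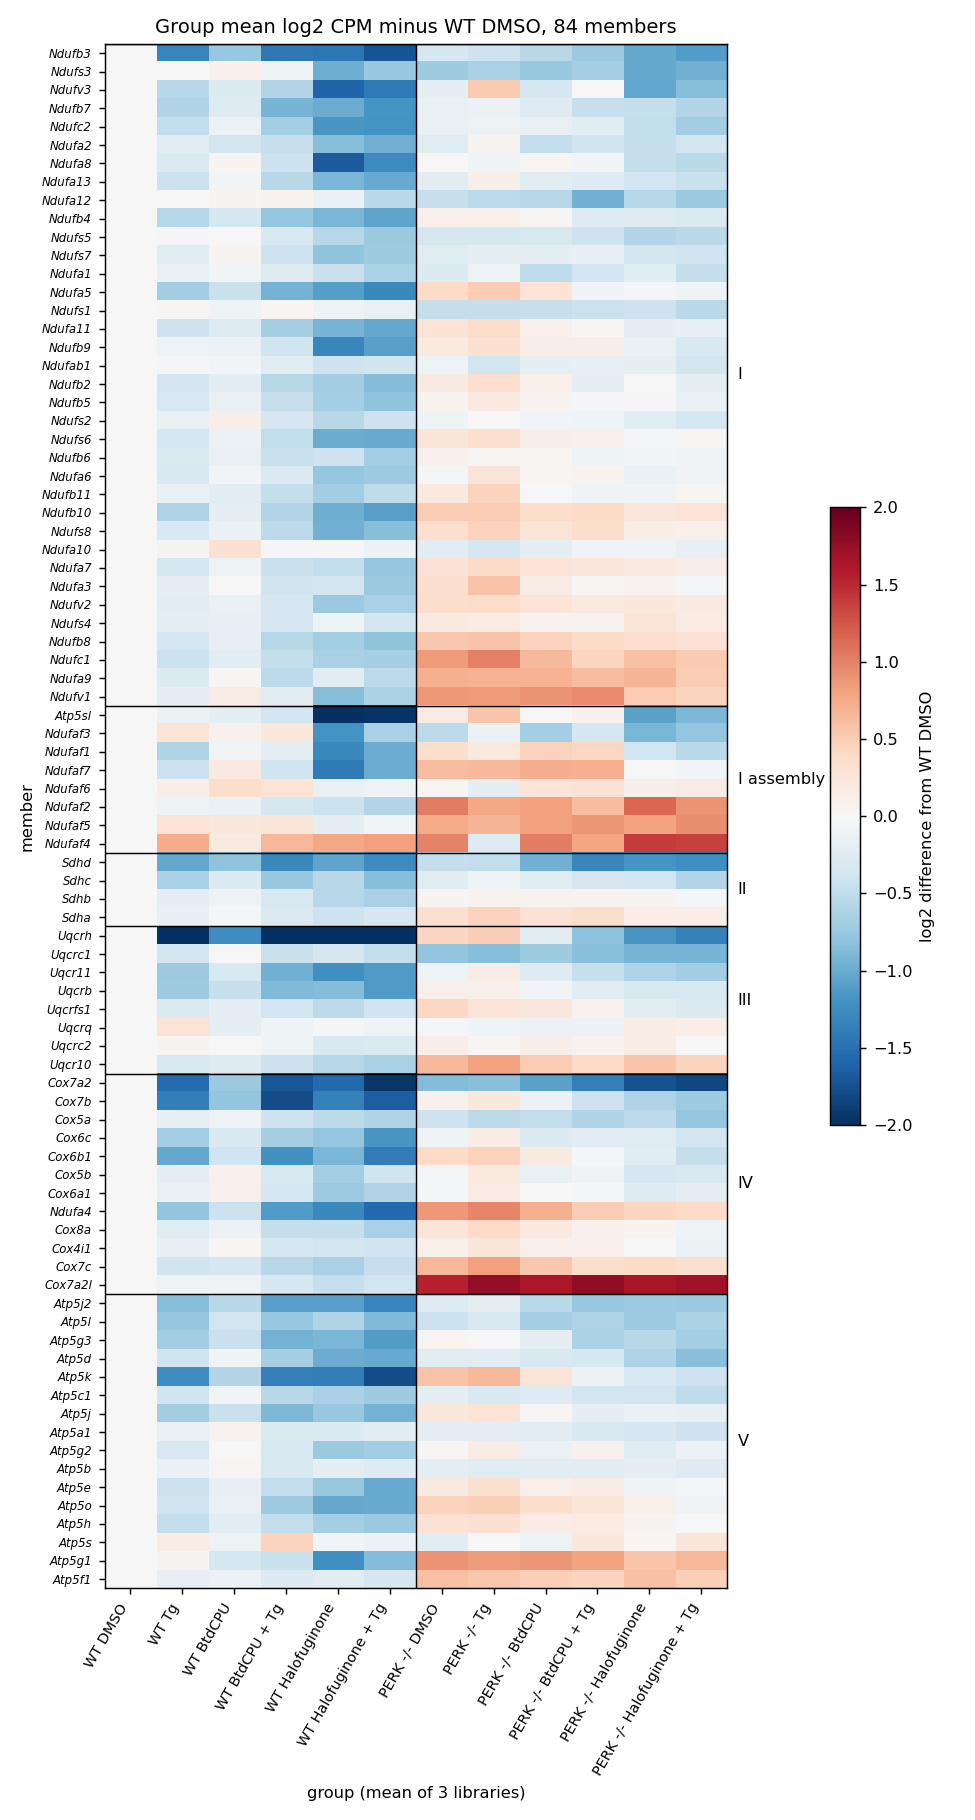
Group mean of log2 CPM minus that of WT DMSO for 84 members (rows, by complex) in the 12 groups (columns), on a colour scale from −2 to 2 that larger falls exceed. The WT halofuginone columns are low across the complexes, and Cox7a2l is high in every PERK -/- column.

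Among the assembly factors of complex I, Ndufaf4 was the member with opposite thapsigargin responses. It read 16.7, 13.9 and 15.4 CPM in WT DMSO and 31.3, 22.4 and 24.2 CPM with thapsigargin, a rise with no overlap (0.76, SE 0.146, adjusted p = 6.97e-05). In PERK -/- cells it started higher, at 31.7, 32.3 and 27.9 CPM (1.00 above WT, SE 0.146, adjusted p = 9.19e-07), and fell to 13.9, 13.9 and 10.9 CPM with thapsigargin (−1.25, SE 0.147, adjusted p = 7.32e-08). The opposite directions gave a genotype difference of −2.01 (SE 0.207, adjusted p = 4.31e-09). Adding BtdCPU to thapsigargin brought Ndufaf4 in PERK -/- cells to 26.3, 27.3 and 25.9 CPM, and adding halofuginone to 41.5, 38.3 and 39 CPM (1.62 over thapsigargin, SE 0.147, adjusted p = 9.39e-11). With thapsigargin alone PERK -/- cells thus held the lowest Ndufaf4 libraries of that genotype.

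Atp5sl, whose product takes part in complex I assembly although the symbol names ATP synthase, had the lowest halofuginone log2 fold change of the 85 members in WT cells. Its CPM was 6.37, 7.62 and 7.03 in WT DMSO, 6.84, 5.92 and 6.58 with thapsigargin and 1.27, 0.498 and 0.894 with halofuginone. Halofuginone libraries lay well below both other groups (−2.98, SE 0.211, adjusted p = 1.29e-13), and thapsigargin alone did not pass (−0.12). In PERK -/- cells it fell from 8.6, 6.5 and 8.53 CPM to 3.53, 3.41 and 2.99 CPM with halofuginone (−1.25, SE 0.183, adjusted p = 1.59e-06), and the genotype difference was 1.73 (SE 0.278, adjusted p = 1.65e-05). Halofuginone also lowered Ndufaf7 (−1.41), Ndufaf1 (−1.24), Ndufaf3 (−1.18) and Ndufaf2 (−0.42) in WT cells and raised Ndufaf4 (0.82). In PERK -/- cells it lowered Ndufaf1 (−0.73) and Ndufaf7 (−0.62) and raised Ndufaf4 (0.39).

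Isoform pairs behaved unequally. Cox6a2 encodes the form of subunit 6a found in heart and skeletal muscle, and it was near absent from DMSO libraries, with 2, 6 and 0 counts in WT and 0, 6 and 3 in PERK -/- cells. In WT cells it reached 176, 208 and 89 counts with thapsigargin, 111, 55 and 87 with BtdCPU and 89, 117 and 24 with halofuginone. Every WT library with a compound exceeded every DMSO library. From summed counts scaled by library size, the ratio to DMSO was 57.7 for thapsigargin (95% exact counting interval 29.1 to 135), 33.1 for BtdCPU (16.5 to 77.4) and 29.9 for halofuginone (14.9 to 70.2). These intervals cover counting error only. Cox6a2 passed the filters on low counts only through the groups in which it is high, so its values are a description, and the counts of members raised include it without adding support.

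Cox6a2 in PERK -/- cells stayed at 5, 6 and 2 counts with thapsigargin (ratio 1.43, interval 0.566 to 3.8) and reached 17, 20 and 11 with BtdCPU (5.24, interval 2.54 to 12.1) and 146, 146 and 131 with halofuginone (47.1, interval 24.6 to 104). Together with thapsigargin, BtdCPU gave 105, 115 and 160 counts and halofuginone 194, 167 and 165. Its partner isoform Cox6a1, read at 201, 206 and 206 CPM in WT DMSO, did not pass with thapsigargin in either genotype (−0.12 and 0.18) and fell with halofuginone in WT cells (−0.72). Of the muscle markers 4 of 4 were detected. In WT cells they summed to 0.928 to 2.17 CPM in DMSO, 0.54 to 1.55 CPM with thapsigargin, at most 3.9 CPM with BtdCPU and 0.704 to 1.39 CPM with halofuginone. The sum in PERK -/- cells was 4.41 to 5.7 CPM in DMSO, 6.66 to 9.78 CPM with BtdCPU, where Cox6a2 counts were also above those in DMSO, and 2.83 to 2.94 CPM with halofuginone. The part of muscle markers in the Cox6a2 values was not tested. Itgad, whose gene span overlaps Cox6a2, had 0 counts in each WT DMSO library and 7, 12 and 7 with thapsigargin in WT. It had 12, 13 and 5 with halofuginone and 19, 16 and 12 with halofuginone and thapsigargin in WT. In PERK -/- cells it had 6, 2 and 9 with halofuginone and 0, 0 and 0 with BtdCPU and thapsigargin. Cox6a2 had 105 to 160 in the last group. The part of Itgad reads in the Cox6a2 values was not tested.

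Other genes of the pathway were read from lists chosen with earlier results of these data known. The 13 mitochondrially encoded subunits had medians of −0.51 with thapsigargin (5 lower), −0.81 with BtdCPU (9 lower) and −0.60 with halofuginone (8 lower) in WT cells. Of all genes tested, 22.7%, 9.31% and 33.4% were lower in these comparisons. In PERK -/- cells edgeR called 0 of 13 with thapsigargin (median 0.01), with BtdCPU (−0.46) or with halofuginone (−0.23), where 0, 7 and 1 had an unadjusted p under 0.05, and 12 fell with BtdCPU over thapsigargin (−0.94). The all-gene shares lower were 12.7%, 1.04% and 21%, and 18.3% for BtdCPU over thapsigargin. CYTB, the complex III subunit made inside mitochondria, fell by 1.52 on the log2 scale in that comparison, where nuclear complex III members had a median of −0.25. In WT cells with BtdCPU alone, the ND genes of complex I ran from −0.52 (ND3, adjusted p = 0.27 by edgeR) to −1.04 (ND4). Nuclear complex I subunits had a median of −0.12 (0.03 with the length offset). WT BtdCPU replicate 2, whose mitochondrial mRNA share of 3.72% lay within the 3.59% to 4.74% of the WT DMSO libraries, enters these values too.

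Of 12 regulators of respiratory genes, 8 rose and 2 fell with halofuginone in WT cells, where 34.7% of all genes rose and 33.4% fell. Ppargc1a, the coactivator PGC-1 alpha, went from 0.801 ± 0.371 to 8.01 ± 1.59 CPM (SD, n = 3; log2 fold change 3.31), and Gabpb1 (0.84), Nrf1 (0.53), Gabpa (0.48) and Yy1 (0.43) rose, whereas Ppargc1b (−1.71) and Polrmt (−1.05) fell. With thapsigargin 4 rose and 1 fell in WT cells (24.9% and 22.7% of all genes), and 1 rose and 5 fell in PERK -/- cells (15.2% and 12.7%). The genotype difference in the thapsigargin response was lower for 7 of 12 (18.6% of all genes), among them Pprc1 (−1.67), Esrra (−0.84), Tfam (−0.63) and Nrf1 (−0.50). With halofuginone over thapsigargin in PERK -/- cells 7 rose and 1 fell (25.2% and 27.5% of all genes).

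Assembly factors outside the name rule moved in both directions, and their counts are read against the shares of all genes: 24.9% higher and 22.7% lower with thapsigargin and 34.7% and 33.4% with halofuginone in WT cells, 12.7% lower with thapsigargin in PERK -/- cells, and 19.5% higher and 18.6% lower for the genotype difference. Of 8 tested for complex I, 4 rose and 1 fell with thapsigargin in WT cells, 2 fell in PERK -/- cells, and the genotype difference was lower for 5 and higher for 1, Tmem126b (0.85). Timmdc1 rose with halofuginone in WT cells and, by 1.18, in PERK -/- cells. Of 23 tested for complex IV, 5 rose and 4 fell with thapsigargin in WT cells and 6 rose and 9 fell with halofuginone: Sco1 (0.92) and Cox10 (0.75) rose with thapsigargin and Pet100 (−1.24) fell. The complex IV counts with thapsigargin lay below those shares. Of the smaller sets, 0 of 2 for complex II (0 also at an unadjusted p under 0.05), 3 rising and 1 falling of 6 for complex III, and 1 rising of 3 for complex V passed with thapsigargin in WT cells. Among 18 other respiratory chain genes and carriers, 3 rose and 3 fell with thapsigargin in WT cells and 5 rose and 7 fell with halofuginone. Cytochrome c (Cycs) passed in neither (−0.18 and −0.14), and the ubiquinone enzyme Pdss1 rose in both (0.58 and 1.57). Cyc1, a complex III gene that the name rule misses, did not pass with thapsigargin (−0.06) and fell with halofuginone (−0.23) in WT cells. In DMSO it was higher in PERK -/- than in WT cells (0.576, edgeR adjusted p = 1.87e-05).

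**Figure D5:**
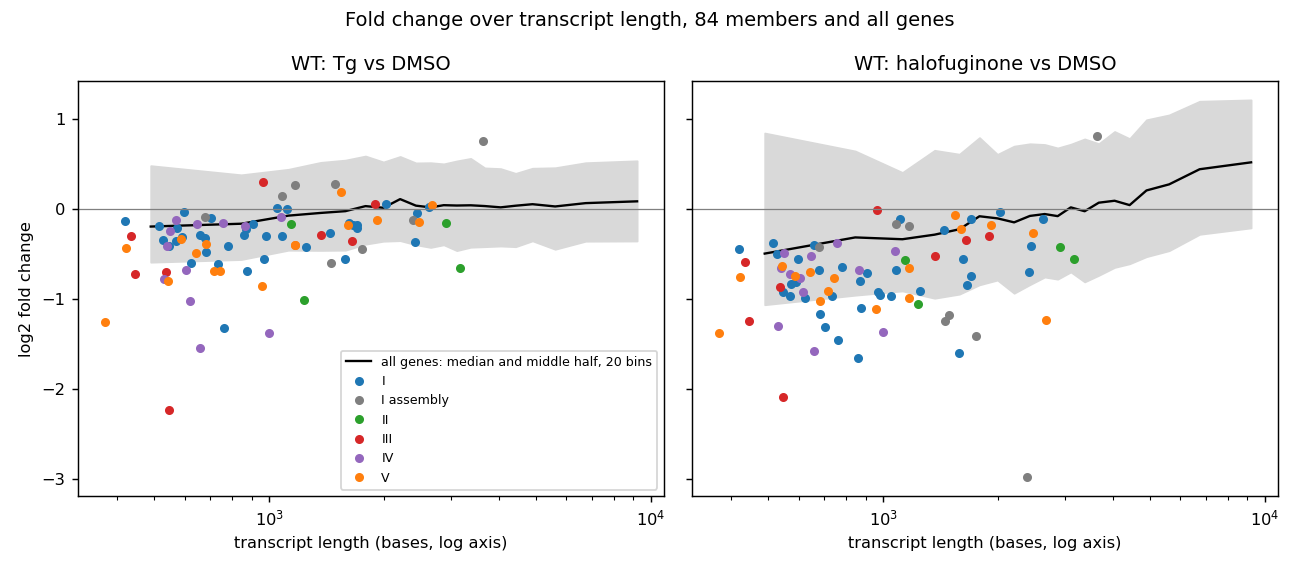
Log2 fold change against transcript length (log axis, bases) in WT cells, thapsigargin in the left and halofuginone in the right panel. The line and grey band give the median and middle 50% of all genes in 20 length bins and the points are 84 members coloured by complex; genes of at most 1000 bases had medians of −0.17 and −0.40.

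Transcript length moved with several of these results. Of the members other than Cox6a2, 47 have transcripts of at most 1000 bases. With thapsigargin in WT cells their median log2 fold change was −0.39 and that of the longer members −0.17, where all genes of those lengths had −0.17 and 0.03. With halofuginone in WT cells the medians were −0.80 and −0.55 for members and −0.40 and 0.02 for all genes. The corresponding members' medians in PERK -/- cells were 0.09 and 0.00 with thapsigargin and −0.29 and −0.14 with halofuginone. Removing each library's trend over length left the WT medians of complexes I to V at −0.21, −0.49, −0.35, −0.11 and −0.32 with thapsigargin and at −0.51, −0.52, −0.29, −0.37 and −0.44 with halofuginone. With that offset 43 members fell and 4 rose with thapsigargin in WT cells. The part of fragment size or RNA quality in the length trend was not tested.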

How the data were processed

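Bulk RNA-seq was measured in 36 libraries, 3 in each of 12 groups of genotype and treatment taken from the labels. Per the labels' protocols, RNA was extracted with a QuickRNA mini kit and strand-specific libraries with ribosomal depletion and mRNA selection were read on a DNBSEQ instrument. The submitters' processing notes name the build GRCm39 and the tool DESeq without its role. The aligner, the counter, the annotation and the use of strand are not given in the sources used here.

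The authors deposited a table of estimated counts by gene, and its library totals differ. Whether values were scaled between libraries before deposit is not given in the sources used here. Its lowest value, 0.025, makes up 50.6% of values and was taken as 0, and 2.69% of the others are not whole. Here 27 date-named entries (0.206% to 0.278% of counts) were left out, 39 repeated symbols were summed and values were rounded. Totals per library were 32454257 to 37178107 counts. The least chi-square per degree of freedom between libraries of a group was 8.74, so no library repeats another within sampling noise.

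Genes were filtered by expression per group, scaled by TMM and fitted with edgeR 4.0.16 (limma 3.58.1, R 4.3.3) in quasi-likelihood models of 12 group means with 24 residual degrees of freedom. The fit gave 16 contrasts over 16065 genes, tested two-sided, with Benjamini-Hochberg adjustment over all genes and calls at an adjusted p under 0.05. A standard error is the log2 fold change divided by the root of the F statistic. An interaction is the PERK -/- log2 fold change minus that of WT. CPM are scaled by TMM, and log2 scores use a prior count of 2. The script was tested on simulated data.

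Alternatives were RLE size factors, library size alone, DESeq2 1.42.0, no filter on low counts, a fit of the compared groups alone, each library left out, a replicate block, and an offset for transcript length taken from the GENCODE M21 annotation of GRCm38 (90.8% of tested genes; the planned RefSeq lengths were not used). A member minimum of 50 counts also left 85 members. The numbers were taken to pair libraries only in the WT comparisons of BtdCPU over thapsigargin (correlations of same-numbered deviations 0.159 to 0.337) and halofuginone over thapsigargin (0.162 to 0.308). In every other comparison of groups the lowest such correlation was at most 0.0682.

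Members named singly were the core subunits, isoform sets, the complex I assembly factors, the extremes of range and, per contrast and complex, the members past the threshold with the largest fall and rise and no overlap of groups; any other gene was named after its values were seen. Members and gene lists (stress response check, markers, mitochondrially encoded subunits, carriers, assembly factors and regulators) were chosen with earlier results of these data known. Sequences are from RefSeq GRCm38.p6, a build other than that of the counts.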

Additional observations from a re-analysis of the deposited data

Results flagged for a closer look

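The difference between genotypes was tested directly for each comparison, and each result here is one in which PERK -/- and WT cells responded unequally by that test; a positive value is a higher log2 fold change in PERK -/- cells. For thapsigargin against DMSO 34 members differed, among them Uqcrh (2.29), Cox7a2 (1.58), Atp5k (1.33), Ndufv3 (1.27), Sdhd (0.99) and Ndufaf7 (0.47) upward and Ndufaf4 (−2.01) and Cox6a2 (−5.30) downward. The Cox6a2 values rest on 0 to 6 counts per DMSO library and depend on the prior count, and the gene passed the filter only through the groups in which it is high, so they are a description. For halofuginone against DMSO 40 members differed, among them Atp5sl (1.73), Ndufa8 (1.17), Atp5g1 (0.91), Ndufa4 (0.84), Uqcr11 (0.74) and Sdhb (0.58). Comparisons over thapsigargin subtract the same thapsigargin libraries that the first comparison adds. A member named in both, with opposite sign, is therefore not a separate finding. For BtdCPU over thapsigargin 5 differed: Cox6a2 (5.09), Ndufaf4 (1.14), Ndufab1 (0.41), Ndufv3 (−0.51) and Uqcrh (−1.05). For halofuginone over thapsigargin 15 differed, among them Cox6a2 (5.49), Ndufaf4 (1.56), Atp5g1 (0.74), Uqcrq (0.61), Ndufa8 (0.53), Sdhb (0.39), Ndufv3 (−0.54), Cox6b1 (−0.56) and Uqcrh (−1.73). Over all genes tested, 19.5% were called higher and 18.6% lower for thapsigargin, and 17.5% and 17.5% for halofuginone. The shares were 10.7% and 10.1% for BtdCPU over thapsigargin and 15.9% and 16.9% for halofuginone over thapsigargin. In both comparisons over thapsigargin the members lay below these shares, at 3.53% and 2.35% and at 12.9% and 4.71%.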

How the results depend on the processing

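Counts of members called are compared here with those of the report. For BtdCPU in WT cells (12) the replicate block gave 27, the block with the length offset 27 and a fit of the compared groups alone 1. For BtdCPU over thapsigargin in WT cells (0) RLE size factors, library size alone and the length offset each gave 1, DESeq2 7, no filter 4, the replicate block 15 and the block with the length offset 8. For halofuginone over thapsigargin in WT cells (58) the length offset gave 35. In PERK -/- cells, thapsigargin (3) gave 8 with the replicate block, 5 with the length offset, 9 with both and 5 with the compared groups alone. BtdCPU (0) gave 1 by DESeq2, 3 without a filter, 3 with the replicate block, 2 with the length offset, 4 with both and 2 with the compared groups alone. Halofuginone (29) gave 49 and BtdCPU over thapsigargin (28) gave 44 with the replicate block. For the genotype differences, thapsigargin (34) gave 58 with the replicate block, halofuginone (40) 26 with the length offset, BtdCPU over thapsigargin (5) 14 with the replicate block, 9 with the length offset and 15 with both, and halofuginone over thapsigargin (15) 27 with the replicate block and 28 with both. Calls over all genes rose with the block too: from 2.32% to 12.9% for BtdCPU over thapsigargin and from 22.2% to 34.4% for BtdCPU in WT cells, from 27.9% to 37.8% for thapsigargin, 3.59% to 9.82% for BtdCPU, 42.2% to 51.4% for halofuginone and 35.6% to 45.5% for BtdCPU over thapsigargin in PERK -/- cells, and in the genotype differences from 38.1% to 47.7% (thapsigargin), 20.8% to 31.1% (BtdCPU over thapsigargin) and 32.7% to 42.7% (halofuginone over thapsigargin). With the length offset they were 44.6% (from 45.3%) for halofuginone over thapsigargin in WT cells and 34.1% (from 35%) for the genotype difference in halofuginone. Where numbers did not pair the libraries, the block is a description only: same-numbered libraries correlated best with their own number in 3 of 3 pairs in several comparisons, a hint from the data and not the design. Why counts moved was not tested.

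Leaving out each library in turn gave 40 to 60 for thapsigargin, 4 to 26 for BtdCPU, 73 to 79 for halofuginone, 0 to 1 for BtdCPU over thapsigargin and 36 to 71 for halofuginone over thapsigargin in WT cells. In PERK -/- cells the ranges were 2 to 3, 0 to 0, 18 to 34, 12 to 24 and 36 to 56, and 27 to 33 for PERK -/- against WT in DMSO. For the genotype differences they were 25 to 41 (thapsigargin), 0 to 4 (BtdCPU), 22 to 54 (halofuginone), 3 to 6 (BtdCPU over thapsigargin) and 8 to 18 (halofuginone over thapsigargin). Of the values of members named singly, 1773 kept their direction and side of the threshold under the other settings, 139 kept the direction and lost the call, and with a library left out these numbers were 1555 and 233; none of these members changed direction while called. Medians of complexes moved beyond the spread between replicates in 27 of 96 values with the length offset, 29 with offset and block, 7 with library size alone and 34 of 756 with a library left out, 11 of them without WT thapsigargin replicate 3; 16 of the 99 moved medians, among them complex I with BtdCPU in WT cells (−0.12, and 0.03 with the offset), took the other sign. With library size alone the median of all genes shifted by −0.11 in WT halofuginone and 0.10 in its genotype difference. Members below about 10 CPM, such as Cox6a2 and Atp5sl, are limited most by depth.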
